A study of Mus musculus with 8 samples.

Results

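The genes described here are 10 regulators of the cell cycle: the CDK inhibitors *Cdkn1a*, *Cdkn1b*, *Cdkn2a*, *Cdkn2b* and *Cdkn2c*, the D-type cyclins *Ccnd1*, *Ccnd2* and *Ccnd3*, and *Trp53* with its antagonist *Mdm2*. They were picked by symbol, by a rule that uses no measured value although earlier results of these data were known, as 10 of the 54658 gene symbols in the table of RNA-Seq counts. RNA-Seq was performed on primary articular chondrocytes, the matrix-producing cells of joint cartilage. These cells were taken from wild-type mice at 3 weeks of age, by digestion of cartilage dissected from the femoral heads. One group of 4 samples received IL-1β, a proinflammatory cytokine, at 1 ng/mL for 24 h, and the other group of 4 samples received vehicle for the same time. The study used IL-1β to model the inflammatory and catabolic state of osteoarthritic cartilage, and the comparison asks how the cell cycle brakes and accelerators of these cells stood in that state. The labels name no genetic change in either group, and they do not say whether the 4 samples of a group came from separate animals or separate cultures, so the p-values below measure only the spread between these samples.

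Progression from G1 into S phase depends on CDK4 and CDK6, which are switched on by D-type cyclins and then phosphorylate the RB protein, so that E2F factors are released to drive replication genes. The INK4 proteins (p15, p16, p18 and p19, from *Cdkn2b*, *Cdkn2a*, *Cdkn2c* and *Cdkn2d*) bind CDK4 and CDK6 and keep cyclin D away, whereas the CIP/KIP proteins (p21, p27 and p57, from *Cdkn1a*, *Cdkn1b* and *Cdkn1c*) bind cyclin-CDK complexes. p53 is a transcription factor that induces p21 and MDM2 after stress, and MDM2 in turn marks p53 for degradation. In cartilage, p16 and p21 are widely used as markers of chondrocyte senescence, and p57 accompanies the exit of growth plate chondrocytes from the cell cycle.

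Total counts per sample ranged from 10992355 to 17456063, and 14404 genes had more than 1 CPM (a count scaled by the sample's total, before TMM) in at least 4 samples and were tested. CPM values printed below are scaled by the TMM-normalized total. Of the 10 cell cycle regulators, 9 passed this filter and *Cdkn2a* did not. The samples expressed the chondrocyte markers: *Col2a1*, the main cartilage collagen, stood at 11191 CPM in vehicle and 2844 CPM in IL-1β. All 10 chondrocyte markers fell with IL-1β (median log2 fold change -1.78, with *Matn1* at -2.79, *Acan* at -2.37 and *Comp* at -2.33 the lowest), and their summed level was 4258 to 4676 CPM with IL-1β against 16345 to 16973 CPM in vehicle. Markers of other cell types moved with the groups as well. The 6 macrophage and leukocyte markers summed to 15.9 to 19 CPM against 11.5 to 12.6 CPM, with *Ptprc*, *Adgre1*, *Csf1r* and *Itgam* under the filter, and of the 2 tested *Cd68* rose (log2 fold change 0.67) and *Lyz2* fell (-0.60), a call that was lost by DESeq2 and without IL-1β replicate 3 or 4 or vehicle replicate 1 or 3. The 5 synovial and fibroblast markers summed to 56.9 to 60.8 CPM against 37.7 to 40.4 CPM, mostly from *Pdgfra* (41.2 against 27.6 CPM). *Thy1*, *Dpt* and *Pi16* were under the filter, each with a lower mean with IL-1β. The 2 tested were higher (*Cd34* 0.76 and *Pdgfra* 0.58). The 4 osteoblast markers summed to 25.9 to 31.4 CPM against 84 to 94.9 CPM, with the 3 that were tested lower (*Ibsp* -3.69, *Bglap* -1.62 and *Sp7* -1.42). The 5 endothelial markers were all under the filter, and none of the markers in these lists was at 0 in all 8 samples. The response to the cytokine was plain in 5 IL-1 response genes, among them *Mmp3* (log2 fold change 5.48), *Cxcl1* (5.17) and *Mmp13* (2.72), which summed to 1746 to 1906 CPM with IL-1β and 91.7 to 99.8 CPM in vehicle. Of these 5, *Il6* was under the filter, with 14 to 26 counts per IL-1β sample and 0 in vehicle. The part of these marker shifts in the values below was not tested. Bulk RNA cannot tell fewer cells of a type from less of a transcript per cell.

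Of the 9 regulators tested, 3 were higher with IL-1β by edgeR's quasi-likelihood test at an adjusted p under 0.05 (*Cdkn2b*, *Cdkn2c* and *Trp53*), where 20.4% of all genes tested were called higher. The other 6 (*Cdkn1a*, *Cdkn1b*, *Mdm2*, *Ccnd1*, *Ccnd2* and *Ccnd3*) were lower, where 19.8% of all genes tested were called lower. *Cdkn2b* was the only one of the 9 with a log2 fold change above 1, which 2.86% of all genes tested passed with the same adjusted p, and none of the 9 had one below -1, which 2.35% passed. The 4 IL-1β samples lay above all 4 vehicle samples for 2 of the 9 (18.7% of all genes tested) and below them for 6 of the 9 (18.2%). The median log2 fold change of the 9 was -0.20, beside -0.00 for all genes tested, whose median absolute log2 fold change was 0.16. Both D-type cyclins and CIP/KIP inhibitors, which act in opposite directions on CDKs, were thus on the lower side.

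**Figure D1:**
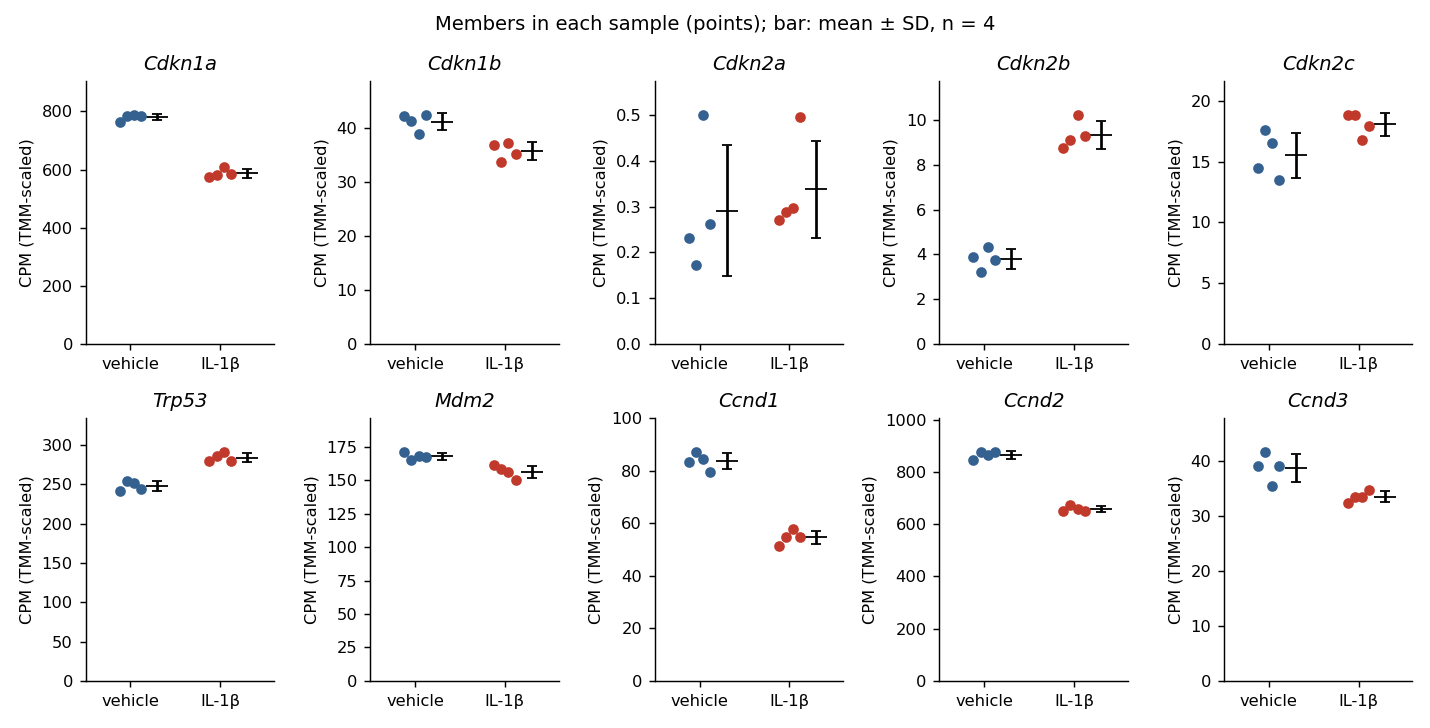
Level of each of the 10 genes in each of the 8 samples, in CPM after TMM normalization with a separate axis per gene, where points are samples and the bars beside them are the mean ± SD (n = 4). The 2 groups of points are apart for 8 genes and overlap for *Cdkn2a* and *Cdkn2c*.

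**Figure D2:**
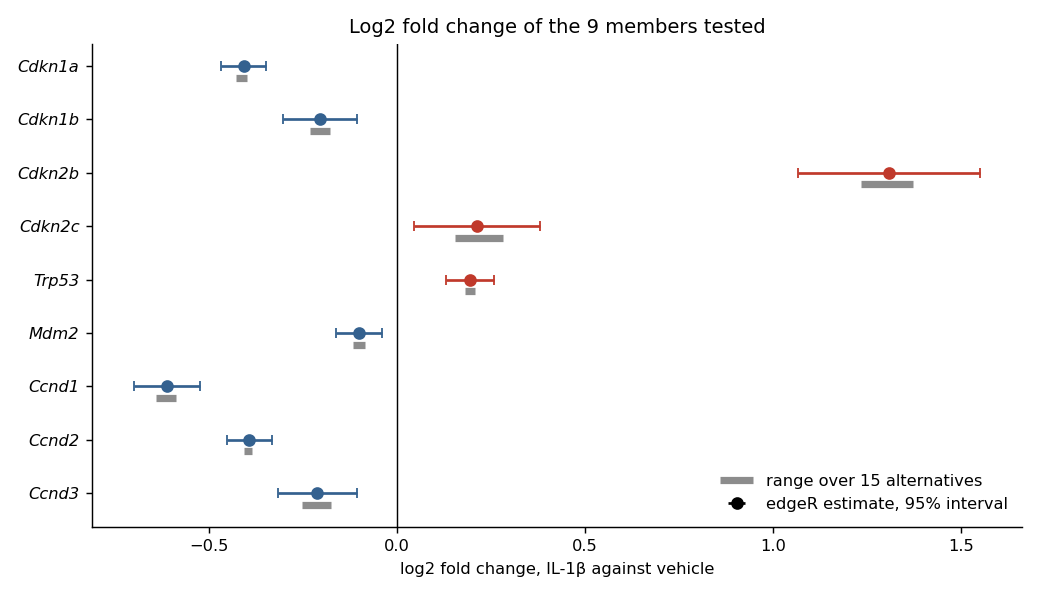
Log2 fold change (IL-1β against vehicle) of the 9 genes tested, with the 95% confidence interval of edgeR's fit as thin bars, red for higher and blue for lower, and the range over 15 alternatives as grey bars. *Cdkn2b* lies at 1.31 and the other 8 lie between -0.61 and 0.21.

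The CIP/KIP inhibitor *Cdkn1a* (chr17:29090976-29100727, plus strand, GRCm38), which encodes p21, was highly expressed, and 0.868% of the genes tested had a higher mean CPM (a scale that is not corrected for gene length). It stood at 573, 581, 610 and 585 CPM in IL-1β replicates 1 to 4 and at 764, 785, 786 and 783 CPM in vehicle replicates 1 to 4. Every IL-1β sample was thus below every vehicle sample, by a margin far wider than the spread within either group (587 ± 16.1 against 779 ± 10.3 CPM, SD, n = 4 each). *Cdkn1a* fell by 24.6% (log2 fold change -0.41, SE 0.0296, adjusted p = 2.43e-12 by edgeR's quasi-likelihood test). *Cdkn1b* (chr6:134920401-134925513, plus strand), which encodes p27 and is regulated largely through protein stability, measured 37, 33.7, 37.2 and 35.3 CPM with IL-1β and 42.2, 41.3, 39 and 42.4 CPM in vehicle, again without overlap. Its decrease was 13.2% (log2 fold change -0.20, SE 0.0482, adjusted p = 0.00105).

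*Cdkn1c*, the third gene of the family, which encodes p57, showed the largest change among the CIP/KIP genes. It measured 2.16, 2.52, 2.32 and 1.56 CPM with IL-1β against 4.04, 4.74, 5.28 and 4.99 CPM in vehicle. It fell by 54.6% (log2 fold change -1.14, SE 0.165, adjusted p = 1.74e-06), although from a low level, with 22 to 39 counts per IL-1β sample. An antisense gene that shares 30.7% of its exon bases had 0 counts in all samples. The summed level of the 3 genes, per kilobase of gene length, was 174 ± 4.72 CPM per kb with IL-1β and 231 ± 2.96 CPM per kb in vehicle. *Cdkn1a* supplied 94.9% ± 0.203 of this sum with IL-1β and 95.1% ± 0.113 in vehicle (SD, n = 4 each). This difference of -0.183 percentage points did not pass the exact permutation test (two-sided p = 0.171, adjusted over 3 such measures 0.171), so that the family was dominated by p21 in both groups. Without the division by length the difference was -0.499 points, with an adjusted p of 0.0286 by the exact permutation test.

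*Cdkn2a* and *Cdkn2b* are neighbours on the minus strand of chromosome 4, at chr4:89274471-89294653 and chr4:89306299-89311039 (GRCm38). *Cdkn2a* has separate promoters for ARF, which restrains MDM2, and for p16, whereas *Cdkn2b* has 1 promoter for p15. The promoter sequences, from RefSeq (GRCm38.p6), span the transcription start and are shown because the 3 starts share 1 locus while only *Cdkn2b* passed the low-count filter. Capitals mark the GC box GGGCGG, the letters bound by SP1-type factors, searched on both strands.
Cdkn2b, chr4:89310983-89311282, minus strand: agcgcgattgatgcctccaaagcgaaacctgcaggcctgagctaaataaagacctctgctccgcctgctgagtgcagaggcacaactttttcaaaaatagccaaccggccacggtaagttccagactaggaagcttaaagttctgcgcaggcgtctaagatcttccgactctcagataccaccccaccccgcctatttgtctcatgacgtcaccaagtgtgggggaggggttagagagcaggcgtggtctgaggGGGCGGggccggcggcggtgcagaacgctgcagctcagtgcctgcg
Cdkn2a ARF, chr4:89294570-89294869, minus strand: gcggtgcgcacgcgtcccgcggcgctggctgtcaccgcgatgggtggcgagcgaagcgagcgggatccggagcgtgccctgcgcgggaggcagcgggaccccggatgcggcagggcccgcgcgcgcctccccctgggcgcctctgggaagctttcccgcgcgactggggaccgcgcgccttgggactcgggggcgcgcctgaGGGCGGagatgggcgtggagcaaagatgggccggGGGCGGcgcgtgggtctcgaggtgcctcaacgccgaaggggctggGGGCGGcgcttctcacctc
Cdkn2a p16, chr4:89282143-89282442, minus strand: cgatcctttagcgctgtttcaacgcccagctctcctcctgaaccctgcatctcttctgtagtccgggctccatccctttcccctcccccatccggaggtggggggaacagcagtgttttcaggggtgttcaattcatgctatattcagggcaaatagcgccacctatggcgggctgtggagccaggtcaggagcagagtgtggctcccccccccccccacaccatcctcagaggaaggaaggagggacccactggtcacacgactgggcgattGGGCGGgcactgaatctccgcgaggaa

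The *Cdkn2b* promoter and the p16 promoter each held 1 GC box, and the ARF promoter held 3. A GC box was present in 35.7% of the 32851 promoters in the table. GC content was 57.7% for *Cdkn2b*, 77% for ARF and 60.3% for p16, beside a median of 52.7% over all promoters. The AP-1 letters TGANTCA (7.81% of all promoters) and the NF-κB letters GGANTTTCC (1.25%) were in none of these 3. AP-1 and NF-κB are the transcription factors best known to act downstream of the IL-1 receptor. The GC box was the only motif searched that these 3 windows held, so no motifs overlapped. A match is a description of the letters and was not tested as a binding site. Only the letters given were searched. Related letters, such as TGACGTCA in the *Cdkn2b* promoter, were not counted, here or over all promoters.

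*Cdkn2b* rose the most of the 10 regulators. Its level was 8.74, 9.09, 10.2 and 9.29 CPM with IL-1β and 3.87, 3.24, 4.35 and 3.75 CPM in vehicle, from 97 to 171 and 56 to 67 counts per sample. The lowest IL-1β sample was above the highest vehicle sample, and the group means were 9.32 ± 0.603 and 3.8 ± 0.458 CPM (SD, n = 4 each). The increase was 2.48-fold (log2 fold change 1.31, 95% confidence interval 1.07 to 1.55, SE 0.118, adjusted p = 2.70e-10 by edgeR's quasi-likelihood test), and 3.19% of the genes tested had a larger absolute change. *Cdkn2a*, its neighbour, was barely detected, with 3, 4, 5 and 7 counts in IL-1β replicates 1 to 4 and 4, 3, 7 and 4 counts in vehicle replicates 1 to 4. These counts correspond to 0.27, 0.288, 0.297 and 0.496 CPM with IL-1β and to 0.231, 0.173, 0.499 and 0.263 CPM in vehicle, at or just above the floor of 3 counts per sample. The groups overlapped. A fit without the low-count filter gave a log2 fold change of 0.25 (SE 0.54, adjusted p = 0.83 by edgeR's quasi-likelihood test), so that a change of p16 and ARF transcripts was not detectable at this depth. The table gives 1 count per gene and does not separate p16 from ARF.

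*Cdkn2c*, which encodes p18, lies elsewhere on chromosome 4 (chr4:109660876-109667189, minus strand). It measured 18.8, 18.8, 16.8 and 17.9 CPM with IL-1β and 14.5, 17.6, 16.5 and 13.5 CPM in vehicle. Vehicle replicate 2 lay within the IL-1β range, so the groups overlapped. The difference was small and close to the threshold (log2 fold change 0.21, SE 0.0819, adjusted p = 0.0397 by edgeR's quasi-likelihood test). It no longer passed with DESeq2 (adjusted p = 0.0721), nor without IL-1β replicate 1, 2 or 4 or without vehicle replicate 1 or 4 (adjusted p from 0.0558 to 0.147). Over all 15 alternatives its adjusted p ran from 0.0108 to 0.147. *Cdkn2d*, which encodes p19, did not pass (3.44 ± 1.12 against 3.61 ± 0.305 CPM, log2 fold change -0.03, adjusted p = 0.907). Per kilobase of gene length, the 4 INK4 genes summed to 15.9 ± 0.839 CPM per kb with IL-1β and 11.1 ± 0.949 CPM per kb in vehicle. *Cdkn2c* made up 52.3% ± 3.41 of this sum in vehicle and *Cdkn2b* 24.8% ± 3.02, and with IL-1β they were at 42.4% ± 3.88 and 42.2% ± 2.39 (SD, n = 4 each, not tested).

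**Figure D3:**
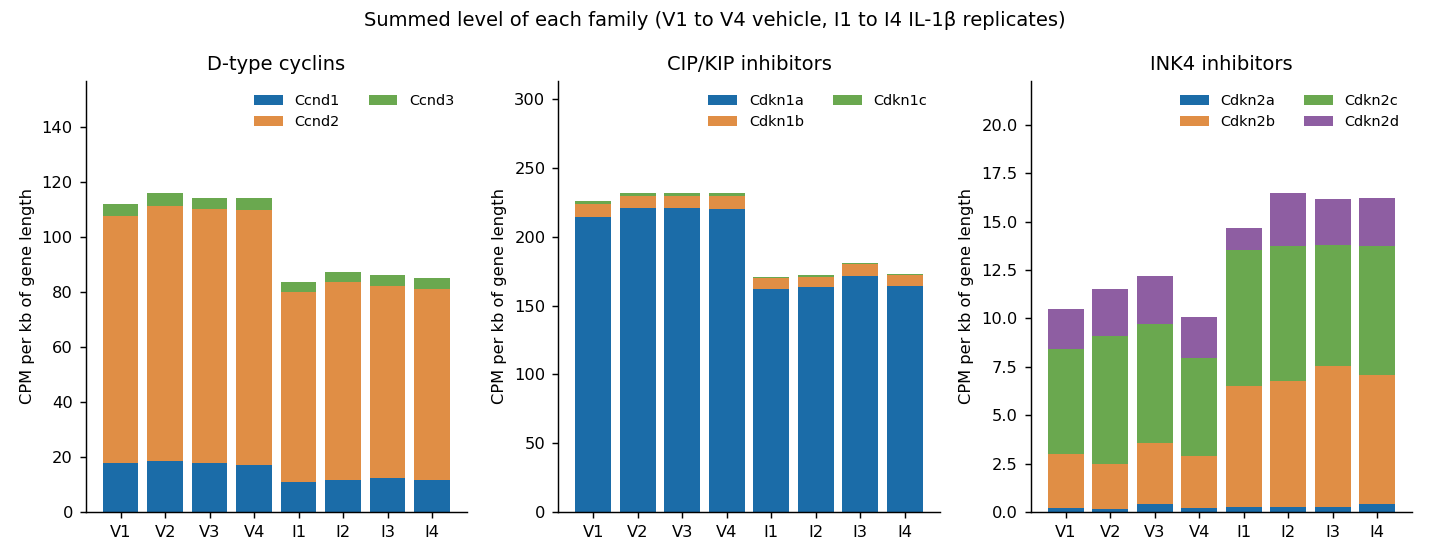
Summed level of the D-type cyclin, CIP/KIP and INK4 genes in CPM per kb of gene length, with 1 bar per sample (V1 to V4 vehicle, I1 to I4 IL-1β) divided by gene and an axis of its own for each family. The CIP/KIP bars average 174 with IL-1β and 231 in vehicle and are nearly all *Cdkn1a*, while the INK4 bars average 15.9 and 11.1 and the D-type cyclin bars 85.5 and 114.

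*Trp53* (chr11:69580359-69591873, plus strand), which encodes p53, stood at 279, 286, 291 and 279 CPM with IL-1β and at 242, 254, 252 and 244 CPM in vehicle. All IL-1β samples were above all vehicle samples. The increase was 14.4% (log2 fold change 0.19, SE 0.0314, adjusted p = 9.37e-06 by edgeR's quasi-likelihood test). *Mdm2* (chr10:117688875-117710758, minus strand), the ubiquitin ligase that limits p53, measured 161, 158, 156 and 150 CPM with IL-1β and 171, 165, 168 and 167 CPM in vehicle. Its groups were also apart, by a narrow margin. It fell by 6.83% (log2 fold change -0.10, SE 0.0298, adjusted p = 0.00678), the smallest change among the 9, and its adjusted p reached 0.0458 in the least favourable of 15 alternatives. Per kilobase of gene length, the ratio of *Mdm2* to *Trp53* was 0.439 ± 0.0149 with IL-1β and 0.538 ± 0.0195 in vehicle (SD, n = 4 each). The difference of -0.0996 had an exact two-sided permutation p of 0.0286, the smallest that 4 against 4 samples can give (adjusted over 3 measures 0.0429). *Trp53* transcript thus rose while both of its classical targets among the 10 genes, *Cdkn1a* and *Mdm2*, fell. p53 is controlled mainly at the protein level, which was not measured here.

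The promoters of *Cdkn1a*, *Mdm2* and *Trp53* are shown for the p53 half-site, which is printed in capitals and was searched on both strands. It was present in 8.36% of the 32851 RefSeq promoters. A full p53 response element consists of a pair of such half-sites.
Cdkn1a, chr17:29090729-29091028, plus strand: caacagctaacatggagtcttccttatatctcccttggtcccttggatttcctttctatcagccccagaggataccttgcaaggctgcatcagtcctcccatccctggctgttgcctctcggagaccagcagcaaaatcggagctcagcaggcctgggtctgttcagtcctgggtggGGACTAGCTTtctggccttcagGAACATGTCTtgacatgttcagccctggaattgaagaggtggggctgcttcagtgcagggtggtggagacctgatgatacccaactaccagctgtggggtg
Mdm2, chr10:117710709-117711008, minus strand: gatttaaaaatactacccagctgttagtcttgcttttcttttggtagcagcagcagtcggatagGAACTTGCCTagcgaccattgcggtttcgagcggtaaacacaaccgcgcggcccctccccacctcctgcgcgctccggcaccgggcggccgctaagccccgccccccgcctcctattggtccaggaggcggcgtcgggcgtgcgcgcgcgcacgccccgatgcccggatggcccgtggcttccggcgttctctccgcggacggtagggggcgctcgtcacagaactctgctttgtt
Trp53, chr11:69580109-69580408, plus strand: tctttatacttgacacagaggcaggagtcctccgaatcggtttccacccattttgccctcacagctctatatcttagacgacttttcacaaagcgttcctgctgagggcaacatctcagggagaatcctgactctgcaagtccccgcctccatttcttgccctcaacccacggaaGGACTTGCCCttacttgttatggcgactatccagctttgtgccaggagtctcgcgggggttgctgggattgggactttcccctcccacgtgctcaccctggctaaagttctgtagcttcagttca

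*Cdkn1a* held 2 half-sites in this promoter, starting at bases 178 and 200 of the window, and none in a second, downstream one. *Mdm2* and *Trp53* held 1 each. Only these windows were searched, and none of the matches was tested as a binding site. These 3 genes are the ones among the 8 with a promoter in the table, 12 promoters in all, in which a half-site was found. The *Trp53* promoter also held the NF-κB letters GGANTTTCC and the TATA letters TATAAA (13.6% of all promoters), each counted once over both strands and away from the half-site. It was the only one of the 12 with NF-κB letters, and none of the 12 held the AP-1 letters TGANTCA.

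The 3 D-type cyclins all fell. *Ccnd1* (chr7:144929931-144939925, minus strand), which encodes cyclin D1 and is a growth factor-responsive activator of CDK4 and CDK6, measured 51.4, 54.7, 57.7 and 54.6 CPM with IL-1β and 83.4, 87.1, 84.3 and 79.7 CPM in vehicle. The highest IL-1β sample lay far below the lowest vehicle sample. *Ccnd1* fell by 34.5% (log2 fold change -0.61, 95% confidence interval -0.70 to -0.52, SE 0.0422, adjusted p = 8.13e-13 by edgeR's quasi-likelihood test), the largest decrease of the 10 genes. Of its exon bases, 23.4% are shared with LTO1 on the opposite strand, and the strand setting of the counting is not given in the sources used here. LTO1 was at 13.8 CPM with IL-1β and 14 CPM in vehicle (log2 fold change -0.02, adjusted p = 0.905).

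*Ccnd2* (chr6:127125162-127152193, minus strand), which encodes cyclin D2, had a higher mean CPM than all but 0.743% of the genes tested. It stood at 650, 675, 659 and 652 CPM with IL-1β and at 845, 876, 865 and 876 CPM in vehicle, and fell by 23.8% (log2 fold change -0.39, SE 0.0286, adjusted p = 2.73e-12 by edgeR's quasi-likelihood test). Its groups were tight and far apart. *Ccnd3* (chr17:47505051-47599691, plus strand), which encodes cyclin D3, measured 32.3, 33.5, 33.5 and 34.7 CPM with IL-1β and 39.1, 41.6, 35.4 and 39 CPM in vehicle. It fell by 13.6% (log2 fold change -0.21, SE 0.0515, adjusted p = 0.00139), with vehicle replicate 3 close to the IL-1β samples. *Ccnd3* shares 4.11% of its exon bases with *Bysl* on the opposite strand, which was lower too (54.7 against 67 CPM, log2 fold change -0.28, adjusted p = 4.33e-05). Genes on the opposite strand also share 7.68% of the exon bases of *Cdkn1a* and 7.86% of those of *Ccnd2*. These were at most 8.92 CPM with IL-1β and 9.49 CPM in vehicle.

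Per kilobase of gene length, the D-type cyclins summed to 85.5 ± 1.52 CPM per kb with IL-1β and 114 ± 1.8 CPM per kb in vehicle. Cyclin D1 accounted for 13.6% ± 0.511 of the sum with IL-1β and 15.6% ± 0.516 in vehicle (SD, n = 4 each). The difference of -2 percentage points had an exact two-sided permutation p of 0.0286, the smallest possible here (adjusted over 3 measures 0.0429). Cyclin D2 made up 82% ± 0.56 with IL-1β and 80.6% ± 0.587 in vehicle, so that it was the main D-type cyclin transcript in both groups.

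The study followed miR-146a, a microRNA induced by inflammatory signals, so the 3′ UTRs of the 10 genes were searched for matches to its seed. The mature sequence, with the seed (bases 2 to 8) in capitals, and the match in *Ccnd2*, with the 7 bases that pair with the seed in capitals, are as follows, from RefSeq (GRCm38.p6) and the GENCODE vM21 transcripts, respectively.
miR-146a-5p: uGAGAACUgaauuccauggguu
Ccnd2 site: gtcgagagacgAGTTCTCtgtactggaaaa

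*Ccnd2* was the only one of the 10 with this match, at bases 1868 to 1874 of a 3′ UTR of 5173 bases in its longest coding transcript. The match was present in 13% of the 11929 genes tested that had an annotated 3′ UTR. *Ccnd1* and *Ccnd3*, which fell by 34.5% and 13.6%, had none. Only matches to the whole seed were searched, in the longest coding transcript of each gene. The paper's TargetScan prediction also took shorter seed matches, which were not searched here. Whether miR-146a acted on *Ccnd2* was not tested by these data.

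Across the 10 genes the order of the levels per kilobase of gene length spanned *Cdkn1a* at the top and *Cdkn2a* at the bottom in both groups. In vehicle, *Cdkn1a* stood at 219 ± 2.89 CPM per kb, *Ccnd2* at 92 ± 1.54, *Trp53* at 61.3 ± 1.46 and *Mdm2* at 33 ± 0.509 CPM per kb. *Ccnd1* (17.8 ± 0.649), *Cdkn1b* (9.06 ± 0.34), *Cdkn2c* (5.79 ± 0.696), *Ccnd3* (4.42 ± 0.288), *Cdkn2b* (2.73 ± 0.329) and *Cdkn2a* (0.249 ± 0.122 CPM per kb) followed, and no neighbours in this order overlapped in their samples. With IL-1β, *Trp53* and *Ccnd2* met at 70.1 ± 1.5 and 70.1 ± 1.2 CPM per kb, with overlapping samples, whereas *Cdkn1a* was at 165 ± 4.53 CPM per kb. *Cdkn2b* reached 6.7 ± 0.434 CPM per kb with IL-1β, overlapping *Cdkn2c* at 6.73 ± 0.358, and thereby stood above *Ccnd3* at 3.82 ± 0.112 CPM per kb. The gene length is that of all exons together, so the order would shift where shorter isoforms prevail. For *Ccnd3* this length is 8775 bases, while its longest coding transcript has 2113. For *Cdkn2b* both are 1390 bases, so the order of these genes depends on the length used.

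**Figure D4:**
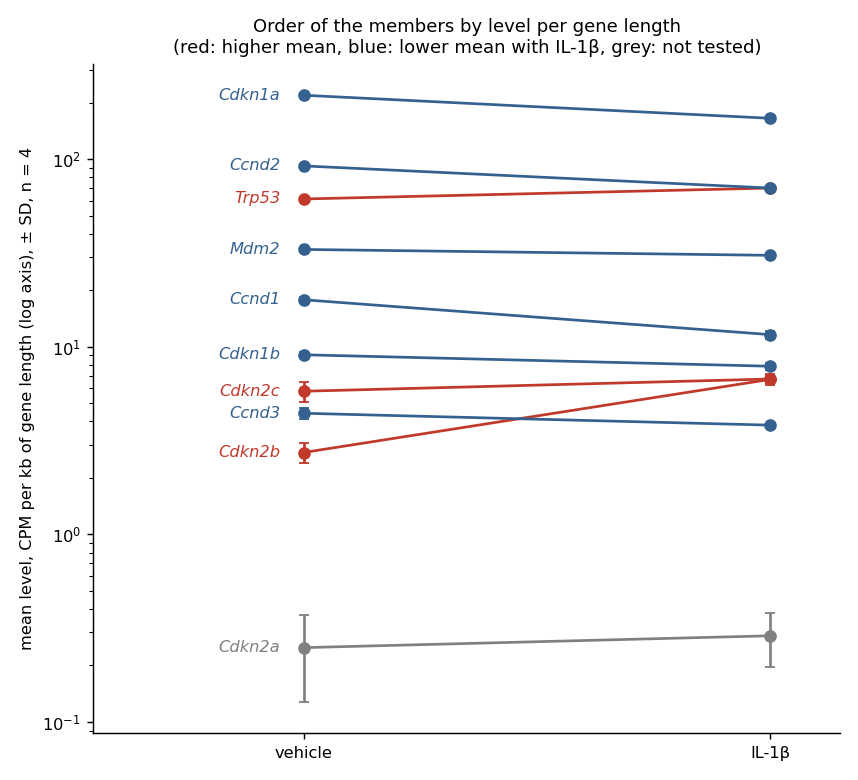
Mean level of each gene per kilobase of gene length (CPM per kb, log axis) in vehicle and IL-1β, with bars for the SD (n = 4) and a line joining the 2 means of a gene, red where the mean was higher with IL-1β, blue where it was lower and grey for *Cdkn2a*, which was not tested. *Cdkn1a* is highest in both groups, *Cdkn2a* lowest, and *Cdkn2b* moves from 2.73 to 6.7 CPM per kb, beside *Cdkn2c*.

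The list counts that follow stand beside 20.4% of all genes tested called higher and 19.8% called lower, and the lists were not compared with other genes by a test. Of 16 genes of CDKs, cyclins and other CDK regulators, 1 rose, 2 fell and 13 did not pass (median log2 fold change -0.04). *Cdk6*, a kinase partner of the D-type cyclins, rose slightly (log2 fold change 0.16, adjusted p = 0.00276 by edgeR's quasi-likelihood test). *Cdk7* and *Mnat1*, subunits of the CDK-activating kinase, fell (-0.22, adjusted p = 0.00237, and -0.21, adjusted p = 0.00301). *Cdk4*, the other kinase partner of the D-type cyclins, was at 139 CPM with IL-1β and 143 CPM in vehicle and did not pass (log2 fold change -0.04, adjusted p = 0.344). Without IL-1β replicate 1 or vehicle replicate 3, 2 genes of this list rose. Of 13 RB pocket proteins and E2F factors, 1 rose, 2 fell and 10 did not pass (median -0.06). *E2f7*, a repressor of E2F targets, fell (-0.57, adjusted p = 0.00726), and the E2F partners *Tfdp2* (0.14, adjusted p = 0.0406) and *Tfdp1* (-0.08, adjusted p = 0.0479) passed only narrowly. By DESeq2, 0 of the list rose and 1 fell. No gene of the list rose without IL-1β replicate 2 or 4 or vehicle replicate 1, 2 or 3, and 1 fell without any single sample other than IL-1β replicate 1.

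Of 16 replication and mitosis genes, 0 rose, 5 fell and 11 did not pass (median log2 fold change -0.16). Only 3 of the list fell by DESeq2 or without the low-count filter, and 1 gene of the list rose without IL-1β replicate 3 or vehicle replicate 4. *Mki67*, a marker of cycling cells, was at 28.4 ± 0.933 CPM with IL-1β and 35.5 ± 1.19 CPM in vehicle (SD, n = 4 each). Its log2 fold change was -0.32 (adjusted p = 6.40e-06 by edgeR's quasi-likelihood test). *Mcm2* (-0.24, adjusted p = 5.21e-06) and *Mcm6* (-0.20, adjusted p = 1.73e-04), subunits of the replicative helicase, fell as well. The replication genes *Mcm3* (-0.00, adjusted p = 0.953), *Mcm7* (-0.02, adjusted p = 0.679) and *Pcna* (-0.02, adjusted p = 0.787) were among those that did not pass.

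Genes of the p53 pathway were called in both directions. Of 11 p53 regulators, 2 rose, 2 fell and 7 did not pass (median log2 fold change -0.05). *Hipk2*, a kinase that phosphorylates p53, had the largest change, with 334 ± 11.3 CPM with IL-1β and 176 ± 7.92 CPM in vehicle (log2 fold change 0.92, adjusted p = 9.42e-19 by edgeR's quasi-likelihood test). *Atm*, the DNA damage kinase, rose (0.24, adjusted p = 4.82e-05), whereas *Ppm1d*, a phosphatase that opposes it (-0.28, adjusted p = 0.0011), and *Cop1*, a ubiquitin ligase (-0.13, adjusted p = 0.00428), fell. Of 20 p53 target genes other than *Cdkn1a* and *Mdm2*, 4 rose, 9 fell and 7 did not pass (median -0.11), beside 20.4% called higher and 19.8% called lower over all genes tested, and 2 had an absolute log2 fold change above 1.

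The p53 targets that rose most were *Fas*, a death receptor that also responds to inflammatory signals, and *Plk2*. *Fas* was at 14.4 ± 1.94 CPM with IL-1β and 5.18 ± 0.735 CPM in vehicle (log2 fold change 1.48, adjusted p = 1.11e-11 by edgeR's quasi-likelihood test). *Plk2*, a polo-like kinase, was at 233 and 142 CPM (0.71, adjusted p = 2.03e-17), and *Phlda3*, an inhibitor of AKT, rose slightly (0.14, adjusted p = 4.09e-04). On the other side, *Pmaip1*, the proapoptotic NOXA, fell from 1.97 ± 0.161 to 0.737 ± 0.147 CPM (-1.38, adjusted p = 2.65e-05). Its IL-1β samples held 6 to 14 counts, all under 1 CPM, so it passed the filter only through the vehicle samples. With CPM above 1 required in all 8 samples, 8 targets were called lower in place of 9. *Perp*, a membrane protein, was at 13.3 and 20.6 CPM (-0.63, adjusted p = 2.73e-07), and *Polk*, a DNA polymerase, at 37 and 50.5 CPM (-0.46, adjusted p = 2.10e-09).

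**Figure D5:**
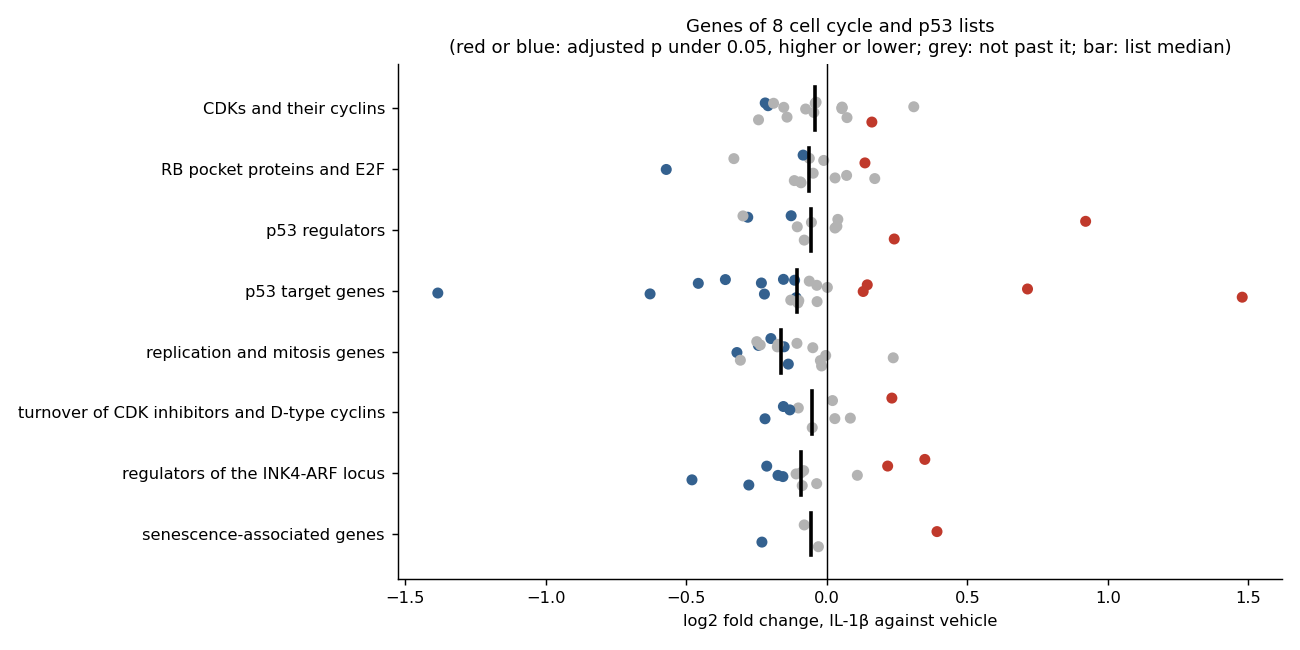
Log2 fold change (IL-1β against vehicle) of each gene tested in the lists of pathway genes, with 1 point per gene, red or blue where it was higher or lower at an adjusted p under 0.05 and grey otherwise, and a vertical bar at the median of each list. Points are spread vertically within a list only to keep them apart. *Fas* at 1.48 and *Pmaip1* at -1.38, the latter from 6 to 14 counts per IL-1β sample, mark the ends of the p53 target list.

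Of 13 regulators of the INK4-ARF locus, 2 rose, 5 fell and 6 did not pass (median log2 fold change -0.09), beside 20.4% called higher and 19.8% called lower over all genes tested. *Ets2* and *Ets1*, activators of *Cdkn2a* transcription, rose (0.35, adjusted p = 1.04e-10, and 0.22, adjusted p = 1.95e-06, by edgeR's quasi-likelihood test). *Id1*, which opposes them, was at 188 CPM with IL-1β and 262 CPM in vehicle (-0.48, adjusted p = 3.24e-13). The Polycomb genes *Ezh2* (-0.28, adjusted p = 0.0261) and *Rnf2* (-0.21, adjusted p = 1.98e-04), whose products keep this locus silent, fell, as did *Eed* (-0.16, adjusted p = 0.0111). *Kdm6b*, the demethylase that removes the Polycomb mark, fell too (-0.17, adjusted p = 2.36e-04). The Polycomb genes *Bmi1* (-0.09, adjusted p = 0.117), *Suz12*, *Ring1*, *Cbx7* and *Cbx8* and the demethylase gene *Kdm2b* did not pass (adjusted p from 0.117 to 0.7).

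Over the 8 samples, the genes whose pattern was most like that of *Cdkn2b*, by Pearson's r of log2(CPM + 1), were *Notch2* (0.9968), *Peli3* (0.9964) and *Tpd52* (0.9963). Those most like *Ccnd1* were *Tpm1* (0.9977), *Hcfc1r1* (0.9977) and *Calr* (0.9968). All points share the contrast between the 2 groups, and 869 and 795 genes, respectively, had an r above 0.95.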

How the data were processed

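RNA-Seq reads of primary articular chondrocytes (4 IL-1β, 4 vehicle) were trimmed with cutadapt, aligned to mm10 with STAR (version 2.4.2a per the submitters' notes, whereas the methods of the paper name another version) and counted with featureCounts. The values deposited are integer counts for each gene symbol, beside which the authors list the gene length in bases. Whether these counts precede or follow the RUVSeq correction named in the methods is not given in the sources used here, and the strand setting of counting likewise.

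Samples were grouped by their treatment label. Counts were normalized by TMM and tested with edgeR 4.0.16 (quasi-likelihood, limma 3.58.1, R 4.3.3), with treatment as the only term, over 14404 genes with CPM before TMM above 1 in at least 4 samples. P-values were adjusted by Benjamini-Hochberg over all of them, and genes with an adjusted p under 0.05 were called. SE is that of the log2 fold change, and the CPM values printed are after TMM. DESeq2 1.42.0 was an alternative. Shares and ratios used CPM divided by the gene length and exact permutation tests over samples (scipy 1.17.1, numpy 2.4.6, pandas 2.3.3, Python 3.11.15). Figures were drawn with matplotlib 3.10.9. Total counts were 10992355 to 17456063, and the floor of 3 counts per sample covers counting error only. Code was tested on simulated data.

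Positions, overlaps and 3′ UTRs came from GENCODE vM21 (GRCm38), in which all 10 gene lengths equalled those deposited. RefSeq promoters were in the table for 8 of the 10 genes.

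The members and the lists were chosen with earlier results of these data known. All 10 were named. From each other list, up to 3 genes with the largest rise and 3 with the largest fall among those called were named, with the most abundant marker, genes at 0 and the 3 genes most like *Cdkn2b* and *Ccnd1*. *Cdkn2d*, *Bmi1*, *Eed*, *Kdm6b*, the other INK4-ARF regulators that were not called, *Cdk4*, *Lmnb1*, *Hmgb2*, *Mcm3*, *Mcm7*, *Pcna*, *Skp2*, *Ambra1*, *Fbxo4*, *LTO1* and *Bysl* were added after their values were seen. Alternatives were DESeq2, other scalings and filters, 1 RUVs factor, a replicate block and each sample left out.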

Additional observations from a re-analysis of the deposited data

Results flagged for a closer look

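Among 128 groups of 4 samples checked over the genes and measures reported, 11 had 1 sample set apart from the other 3 by more than Dixon's test allows at its 95% level. Chance gives about 1 in 20, here 6.4. Among the 10 regulators, *Cdkn1a* in vehicle replicate 1 was at 764 CPM (the others 783 to 786), and *Cdkn2a* in IL-1β replicate 4 at 0.496 CPM (0.27 to 0.297). The *Ccnd1* share of the D-type cyclins in vehicle replicate 4 was 14.8% (15.7% to 15.9%).

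In the pathway lists, vehicle replicate 4 stood apart for *Id1* at 255 CPM (264 to 265), for *Mcm6* at 64.1 CPM (60.8 to 61.2) and for the chondrocyte marker *Comp* at 549 CPM (523 to 527). Vehicle replicate 3 stood apart for *Atm* at 44.9 CPM (45.8 to 45.9) and for *Polk* at 48.2 CPM (51.1 to 51.5). Vehicle replicate 1 was low for *Rnf2* at 52.1 CPM (56.7 to 57.2). With IL-1β, *Cdk4* in replicate 1 was at 144 CPM (136 to 138) and *Cop1* in replicate 3 at 88.4 CPM (92.7 to 93.1).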

How the results depend on the processing

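Over 15 alternatives (DESeq2, 2 other scalings, 2 other filters, 1 RUVs factor, a replicate block and 8 samples left out in turn), *Cdkn1a*, *Cdkn1b*, *Cdkn2b*, *Trp53*, *Mdm2*, *Ccnd1*, *Ccnd2* and *Ccnd3* kept their direction and their call. *Cdkn2c* kept its direction, with a log2 fold change of 0.21 by DESeq2 (adjusted p = 0.0721) and 0.15 to 0.28 with 1 sample left out. No result that was tested reversed its direction. Genes past an absolute log2 fold change of 1 numbered 266 higher with CPM above 1 in all 8 samples (412 in the reported fit), and 635 higher and 571 lower (339) without a filter, which tests fewer and more low genes, respectively.

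Small list counts moved. RB and E2F genes called higher were 0 by DESeq2, by total library size, without a filter and with the block, and 0 to 1 with a sample left out, and those called lower were 1 by DESeq2, without a filter and with the block, and 1 to 2 with a sample left out. CDKs, cyclins and other CDK regulators called higher were 1 to 2 with a sample left out. Replication and mitosis genes called lower were 3 by DESeq2 and without a filter, and those called higher 1 with the block and 0 to 1 with a sample left out. Macrophage and leukocyte markers called lower were 0 by DESeq2, with CPM above 1 in all 8 samples, without a filter and with the block, and 0 to 1 with a sample left out, so that the fall of *Lyz2* depends on the setting. The cause was not tested. The *Cdkn1a* share differed by -0.499 points (adjusted p = 0.0286, exact permutation test) with counts not divided by length.

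Replicate numbers showed no sign of pairing in the values: deviations of same-numbered samples correlated at -0.0699 to 0.0416, and other pairs at -0.085 to 0.0909. The labels do not say whether same-numbered samples share an animal or culture, and this check cannot settle it. The replicate block called 5643 genes against 5796, with 5586 shared, and changed the call of no member. The exact paired test of the *Ccnd1* share (-2 points) and the *Mdm2* to *Trp53* ratio (-0.0996) gave an adjusted p of 0.188, and 4 pairs cannot go below 0.125. Depth limits *Cdkn2a* most, at 3 to 7 counts per sample.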

Other observations

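Of 9 genes that set the turnover of CDK inhibitors and D-type cyclins, 1 rose, 3 fell and 5 did not pass edgeR's quasi-likelihood test (median log2 fold change -0.05), where 20.4% of all genes tested were called higher and 19.8% lower. *Fbxo31*, an F-box protein that targets cyclin D1, rose (0.23, adjusted p = 4.24e-05). *Fbxw7*, which targets cyclin E (-0.22, adjusted p = 0.00597), fell. So did *Cks1b* (-0.15, adjusted p = 0.0407), which serves the ligase that degrades p27, and *Skp1a* (-0.13, adjusted p = 0.00125), a subunit shared by F-box ligases. *Skp2*, the F-box gene of the p27 ligase, did not pass (-0.10, adjusted p = 0.43). *Ambra1* (0.03, adjusted p = 0.609) and *Fbxo4* (-0.05, adjusted p = 0.659) of the same list did not pass either.

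Of 4 senescence-associated genes, 1 rose, 1 fell and 2 did not pass, beside 20.4% called higher and 19.8% called lower over all genes tested. *Glb1*, the lysosomal β-galactosidase behind the usual senescence stain, was at 25.6 CPM with IL-1β and 19.4 CPM in vehicle (log2 fold change 0.39, adjusted p = 4.70e-06 by edgeR's quasi-likelihood test). *Hmgb1*, a chromatin protein, fell (-0.23, adjusted p = 1.10e-05). *Lmnb1*, the nuclear lamin B1 (-0.03, adjusted p = 0.813), and *Hmgb2* (-0.08, adjusted p = 0.216) did not pass. *Glb1* and *Cdkn2b* thus rose, while *Cdkn1a* fell and *Cdkn2a* stayed near the floor of 3 counts.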
